A study of Rattus norvegicus with 6 samples.

Results

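The constitutive proteasome genes were described across 3 states of vasopressin signalling in the rat kidney inner medulla. Members were the genes whose symbol in the array annotation begins with Psma, Psmb, Psmc, Psmd, Psme or Psmf followed by a number, leaving out the immunoproteasome subunits Psmb8, Psmb9 and Psmb10. The rule found 39 of the 14168 genes that the array measured under a symbol of their own. Where a gene had several probe sets, as 6 members did, the brightest on average was taken. The rule reads symbols, not levels, though it was set with earlier results of these data known.

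Total RNA of the inner medulla of male Sprague-Dawley rats, whose age the labels do not give, was measured on 6 whole-transcript arrays, 2 per group, so the number of arrays limits the precision of every value. All groups carried a subcutaneous osmotic minipump for 5 d. In the withdrawal group the pump delivered 40 ng/h of dDAVP (desmopressin, an agonist of the vasopressin V2 receptor) for 5 d and was then taken out under light enflurane anaesthesia, with tissue collected 3 h later. The dDAVP group received the same infusion without removal, and saline at 1 µl/h was given to the vehicle group. Anaesthesia and pump removal were applied to the withdrawal group alone, so the end of the infusion and the procedure cannot be told apart. Whether replicate arrays came from different animals is not stated in the labels, so the p-values reflect array-to-array spread, which may be technical.

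The proteasome degrades proteins tagged with ubiquitin. Its barrel-shaped core stacks outer rings of alpha subunits, which gate entry, on inner rings of beta subunits, of which Psmb5, Psmb6 and Psmb7 carry the peptide-cutting sites. A regulatory cap binds and unfolds substrates, with ATPases (Psmc) and scaffold or receptor proteins in its base and a lid that includes the deubiquitinase Psmd14. Other caps (Psme) activate the core without ubiquitin, and chaperones guide assembly. When proteasome activity falls short, the transcription factor Nfe2l1 is known in mammalian cells to raise the subunit genes together through antioxidant response elements in their promoters. In collecting duct cells, the vasopressin-regulated water channel aquaporin-2 is known to be ubiquitinated and degraded.

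The 39 genes comprised 7 of the alpha ring, 6 of the beta ring, 6 ATPases of the cap's base, 3 other base subunits, 8 lid subunits, 3 assembly chaperones of the cap and 3 activators. The remaining 3 matched the symbol pattern but are not general proteasome components. Psmb11 is the beta subunit known from thymic epithelium, and its probe set lay between 6.30 and 6.69 on the log2 scale. Psmc3ip acts in meiotic recombination, and Psme3ip1 is named for its interaction with the activator Psme3. The other 36 genes are called subunits and regulators, and leaving out Psmb11, Psmc3ip and Psme3ip1 moved no median by more than the replicate spread. Psma3l is named as the array annotation names it, and RefSeq lists that symbol as a synonym of Psma3. Psma3, Psma8, Psmb4, Psme3 and Psmf1 were not analysed here. RefSeq lists 41 pseudogenes for 16 of the members, so the probe sets of those members could also bind RNA of a near-identical copy.

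Promoters are shown for the 3 catalytic beta subunits and for Psmd9, the chaperone with the smallest p in withdrawal against dDAVP, because the common control of these genes is known to act there. The sequences are from RefSeq (build GRCr8), run 5′ to 3′ on the gene's strand and span 250 bases before to 50 after the annotated start. RefSeq promoters were found for 33 of the 39 members. Capitals mark TGACNNNGC, the antioxidant response element core, and CCAAT, each searched on both strands. They lie at chr15:32047330-32047629 (minus strand) for Psmb5, chr10:55737638-55737937 (plus strand) for Psmb6, chr3:42827421-42827720 (minus strand) for Psmb7 and chr12:39018215-39018514 (minus strand) for Psmd9.
Psmb5: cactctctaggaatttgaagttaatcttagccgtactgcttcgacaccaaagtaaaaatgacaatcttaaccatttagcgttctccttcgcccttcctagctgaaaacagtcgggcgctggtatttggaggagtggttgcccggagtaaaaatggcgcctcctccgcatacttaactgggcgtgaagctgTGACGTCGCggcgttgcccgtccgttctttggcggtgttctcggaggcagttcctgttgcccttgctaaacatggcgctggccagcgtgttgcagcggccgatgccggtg
Psmb6: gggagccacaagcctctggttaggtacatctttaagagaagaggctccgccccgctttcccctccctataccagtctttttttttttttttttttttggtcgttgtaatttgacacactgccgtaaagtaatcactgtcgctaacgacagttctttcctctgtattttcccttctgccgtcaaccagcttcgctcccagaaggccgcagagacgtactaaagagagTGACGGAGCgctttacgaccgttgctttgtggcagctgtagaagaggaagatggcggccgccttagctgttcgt
Psmb7: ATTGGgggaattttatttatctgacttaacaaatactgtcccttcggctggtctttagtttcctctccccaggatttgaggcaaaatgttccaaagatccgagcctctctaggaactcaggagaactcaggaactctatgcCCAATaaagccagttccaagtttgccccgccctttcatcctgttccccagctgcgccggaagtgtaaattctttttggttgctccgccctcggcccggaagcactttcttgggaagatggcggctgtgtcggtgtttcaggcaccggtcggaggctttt
Psmd9: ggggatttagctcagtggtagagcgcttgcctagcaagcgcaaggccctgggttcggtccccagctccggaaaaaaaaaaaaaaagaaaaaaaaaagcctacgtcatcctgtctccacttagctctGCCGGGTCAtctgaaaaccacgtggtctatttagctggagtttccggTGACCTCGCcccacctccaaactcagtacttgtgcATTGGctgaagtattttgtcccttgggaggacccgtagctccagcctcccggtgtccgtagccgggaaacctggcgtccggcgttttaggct

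The match began 60 bases before the start in Psmb5 and 24 bases before it in Psmb6. Psmd9 held 2 matches, 124 and 77 bases before the start, and 1 CCAAT. Psmb7 held no TGACNNNGC in this window and 2 CCAAT. TGACNNNGC was found in 7 of 33 member promoters (21.2%), against 13.7% of the 12233 promoters of genes on the array. The 7 were those of Psmb2, Psmb5, Psmb6, Psmd1, Psmd3, Psmd9 and Psme4. The looser TGANNNNGC, which contains every TGACNNNGC, was in 19 of 33 (57.6%, against 42.1%), CCAAT in 17 (51.5%, against 38.2%) and GGGCGG in 24 (72.7%, against 50.1%), all on both strands. A match describes letters and is not evidence of a bound factor.

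The tissue and the arrays were checked before the comparisons. Of 37 cell type markers 31 were measured. The means of the 5 principal cell markers ran from 8.40 to 13.24 log2, those of the 3 markers of the inner medullary collecting duct from 10.81 to 12.87 and those of the 2 thin limb markers from 12.40 to 12.99. The 3 proximal tubule markers lay between 7.17 and 7.42, the podocyte marker Nphs1 at 6.85 and the 2 urothelial markers between 7.63 and 7.99, near or below the median gene at 7.96. The 2 thick ascending limb markers, of the neighbouring outer medulla, lay at 10.17 and 10.25 and the 3 intercalated cell markers between 9.62 and 10.17, and both lists varied between arrays. The summed intensity of the thick ascending limb markers was 3092 and 1689 in withdrawal, 2139 and 3796 in dDAVP and 1712 and 2607 in vehicle. That of the intercalated cell markers was 3956 and 2465 in withdrawal, 3311 and 2730 in dDAVP and 1592 and 3541 in vehicle. The 2 fibroblast markers lay at 8.35 and 11.81 log2 and the 4 endothelial markers between 7.12 and 11.96. The summed intensity of the fibroblast markers was 3186 and 4467 in withdrawal, 3700 and 3705 in dDAVP and 5049 and 3681 in vehicle. That of the endothelial markers was 5501 and 4901 in withdrawal, 5813 and 5941 in dDAVP and 5352 and 5806 in vehicle. The part of these cell types in the proteasome values was not tested. The median intensities were 182 and 181 (withdrawal), 156 and 165 (dDAVP) and 182 and 175 (vehicle). The median gene accordingly lay 0.14 log2 above dDAVP in withdrawal, 0.11 below vehicle in dDAVP and 0.03 above vehicle in withdrawal. The offset was smaller among bright genes: over the 2487 genes with a mean of at least 10 log2, where 34 of the 39 members lie, the same medians were 0.02, -0.02 and 0.00. Cyclic loess, which removes trends with brightness between arrays, brought the median of all genes to 0.00 in each comparison, and values after it are given beside the deposited ones. Vehicle replicate 1 and dDAVP replicate 2 stood apart together, with 40 genes lying over 1 log2 above or below all 4 other arrays, against at most 2 genes for any other pair.

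No proteasome gene differed between the groups at an adjusted p under 0.05. Limma called 0 of 39 members, and 0.0% of all genes, in each of the 3 comparisons and in the F-test over the groups. The smallest adjusted p of a member was 0.260 in withdrawal against dDAVP, 0.549 in dDAVP against vehicle, 0.995 in withdrawal against vehicle and 0.489 in the F-test. At an unadjusted p under 0.05, 4 members were higher and 0 lower in withdrawal than in dDAVP, against 17.3% and 1.64% of all genes. In dDAVP against vehicle 0 members were higher and 1 lower at that p, against 0.572% and 6.85% of all genes. In withdrawal against vehicle no member reached it, against 0.642% and 1.14% of all genes. In bulk tissue, fewer cells of a type and less RNA per cell cannot be told apart. On the loess scale the same p value was reached upwards by 4 members and downwards by 0 in withdrawal against dDAVP (3.19% and 3.32% of all genes), 0 and 1 in dDAVP against vehicle (1.78% and 1.47%) and 0 and 0 in withdrawal against vehicle (0.819% and 1.28%). The comparisons share arrays, so their values stand side by side and are not independent of each other.

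Most members had small differences of the same sign on the deposited values. In withdrawal against dDAVP 32 of the 39 genes had a mean above that of dDAVP and 7 below it, with a median difference of 0.14 log2 and a range of -0.16 to 0.56. Over all genes 74.9% were above 0 and 25.1% below, and the median of all genes was also 0.14, so on the deposited values the members' median lay at that of all genes. After cyclic loess 32 members were above 0 and 7 below, against 50.9% and 49.1% of all genes, with a member median of 0.12. In dDAVP against vehicle 33 members were below 0 and 6 above (77.9% and 22.1% of all genes), with medians of -0.10 for the members and -0.11 for all genes, and after loess 31 were below 0 and 8 above (50.2% and 49.8% of all genes), with a member median of -0.08. In withdrawal against vehicle 30 were above 0 and 9 below (59.5% and 40.5% of all genes), with medians of 0.05 and 0.03, and after loess 29 were above and 10 below (51.4% and 48.6%), with a median of 0.06. With each array's median subtracted, which shifts every gene of an array alike, the member median was 0.02 in withdrawal against dDAVP, 0.01 in dDAVP against vehicle and 0.05 in withdrawal against vehicle. On that scale no member was higher and 1 was lower in withdrawal than in dDAVP at an unadjusted p under 0.05.

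**Figure D1:**
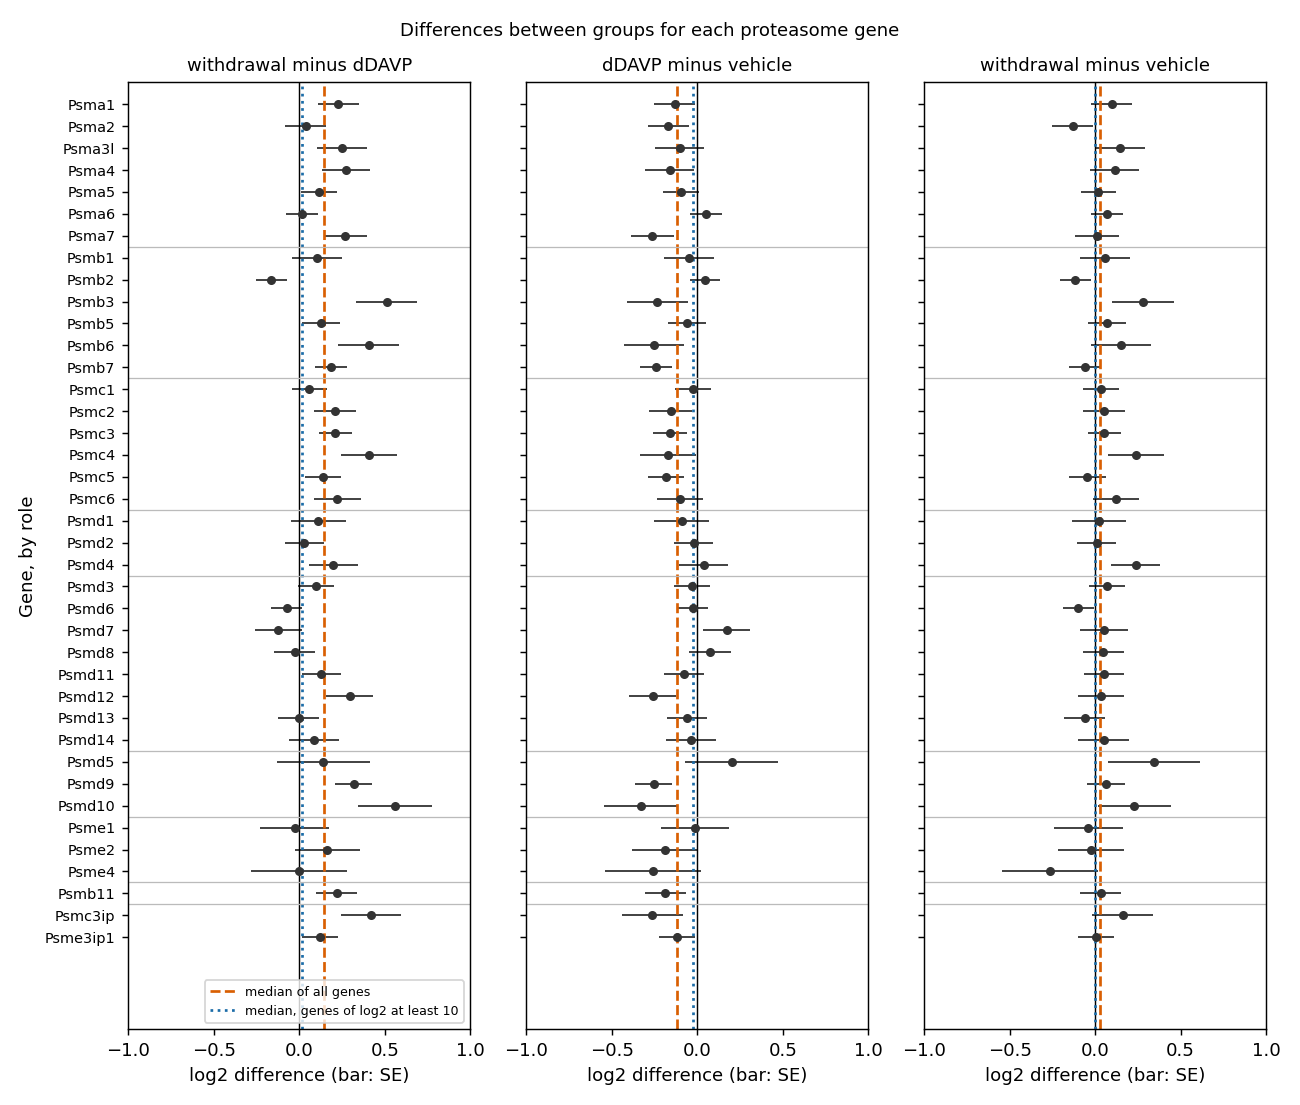
Log2 difference (points) with its moderated standard error (bars) for each of the 39 genes, ordered by role, in withdrawal minus dDAVP, dDAVP minus vehicle and withdrawal minus vehicle. The dashed line is the median of all 14168 genes and the dotted line that of the genes with a mean of at least 10 log2. Most points lie right of 0 in the left panel and left of 0 in the middle panel, with Psmd10, Psmb3, Psmc3ip, Psmc4 and Psmb6 farthest right in the left panel.

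The 2 arrays of a group were separated from the 2 of the other for some members. In withdrawal against dDAVP 18 members were higher without overlap and 2 lower, against 49.6% and 8.06% of all genes on the deposited values. After loess 17 were higher and 2 lower, against 20.3% and 19.1%. In dDAVP against vehicle 2 members were higher and 13 lower without overlap, against 4.8% and 40.6%, and after loess 3 and 15, against 15.2% and 14.8%. In withdrawal against vehicle 0 were higher and 3 lower, against 17.6% and 13.1%, and after loess 6 and 4, against 16.1% and 16%. For 11 members both dDAVP values were under those of every other array (33.6% of all genes), namely Psma1, Psma4, Psma7, Psmb6, Psmb7, Psmc2, Psmc3, Psmc5, Psmd9, Psmd12 and Psmc3ip. After loess this held for 13 members, against 8.21% of all genes.

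The members' gap within the withdrawal group was wider than their median difference between groups. Withdrawal replicate 2 was the highest of the 6 arrays for 28 of the 39 members, against 28.1% of all genes and 29.4% of the bright ones. It lay above withdrawal replicate 1 for 36 members (52.9% of all genes), with a median gap of 0.19 log2 for the members and 0.01 for all genes. After loess withdrawal replicate 2 was above replicate 1 for 29 members, against 7039 of all 14168 genes. The members' median gap was then 0.16 log2. Of the 31 cell type markers, 1 was highest in withdrawal replicate 2. A dDAVP array was the lowest for 29 members, against 67.6% of all genes. Replicate 1 of dDAVP was lowest for 13 members and replicate 2 for 16, against 21.6% and 20.3% of the bright genes. After loess each was lowest for 14 members, against 19.2% and 18.6% of all genes.

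**Figure D2:**
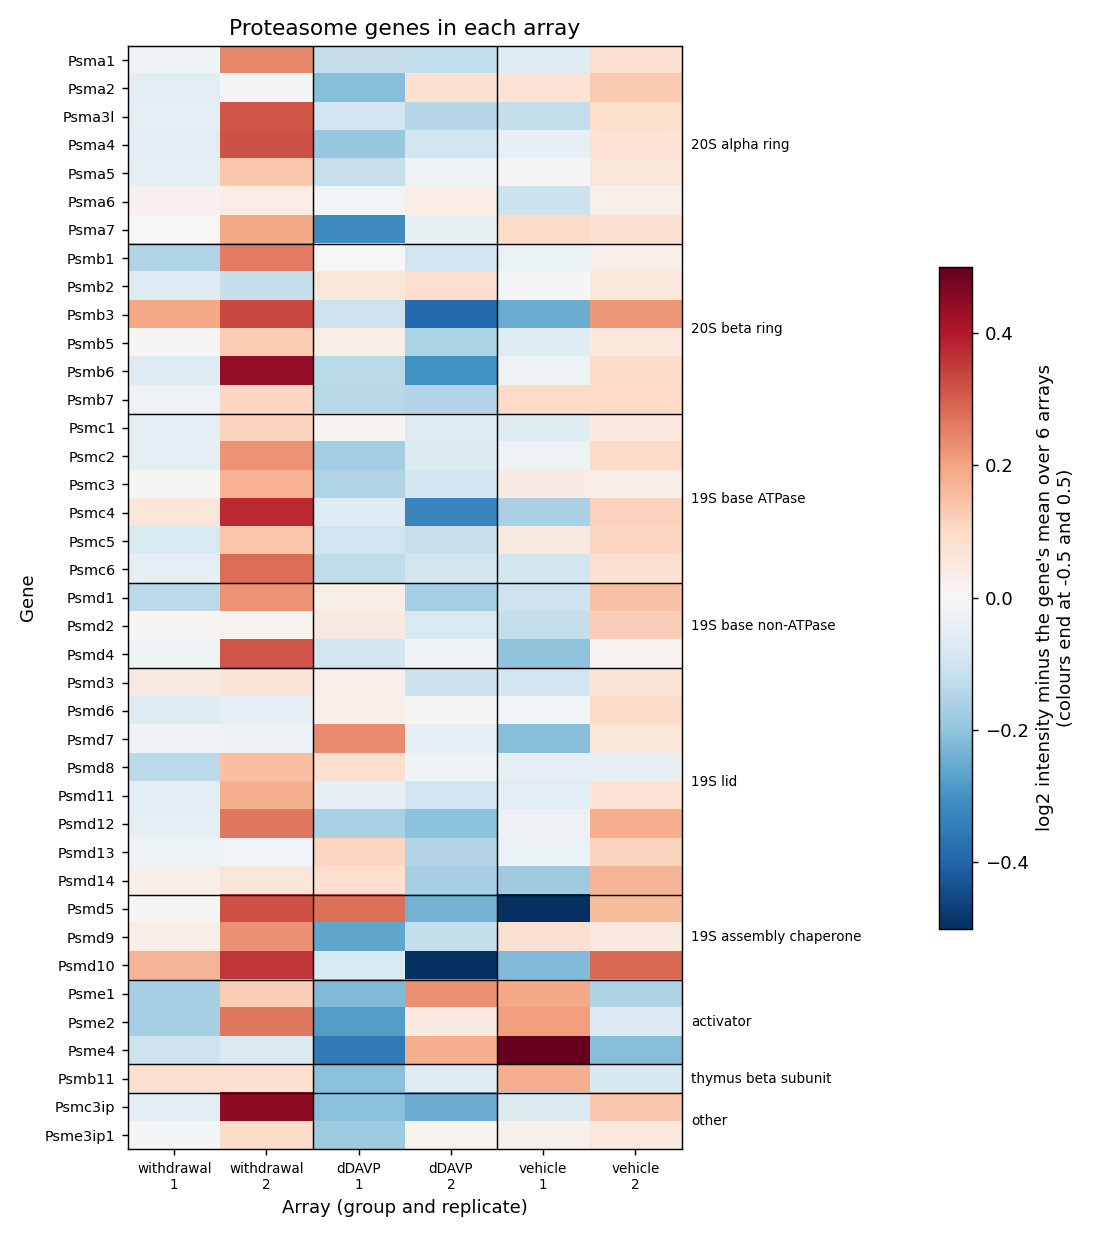
Log2 intensity of each of the 39 genes (rows, grouped by role) in each of the 6 arrays (columns) minus the gene's mean over the arrays, on a colour scale that ends at -0.5 and 0.5. Withdrawal replicate 2 is the highest array in 28 rows, and the dDAVP columns hold the lowest array in 29.

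Leaving out withdrawal replicate 2 lowered the members' values, as it must for the 36 members in which it was the higher withdrawal array. Without withdrawal replicate 2, 27 members were above 0 and 12 below in withdrawal against dDAVP, with 73.0% of all genes above 0. The medians were 0.06 for the members and 0.13 for all genes. After loess 27 members were again above 0 and 12 below, against 49.7% of all genes above 0, with medians of 0.04 and 0.00. Without withdrawal replicate 1, on the deposited values, the member median was 0.25, with 36 genes above 0. All genes then had a median of 0.15, with 73.8% above 0. In the 4 members with an unadjusted p under 0.05 both withdrawal arrays lay above both dDAVP arrays. Leaving out any array could therefore not change their sign. Their differences then ran from 0.34 to 0.78 for Psmd10 and from 0.37 to 0.65 for Psmb3. They ran from 0.25 to 0.57 for Psmc4 and from 0.22 to 0.42 for Psmd9. Without withdrawal replicate 2 no member had an unadjusted p under 0.05, in a limma fit in which the lone withdrawal array is assumed to vary like the other groups. Withdrawal against vehicle changed direction: without withdrawal replicate 2, 12 members were above 0 and 27 below, with a median of -0.06, while 55.4% of all genes were above 0. Without vehicle replicate 1, 21 members were above 0 and 18 below in that comparison, with a median of 0.00, against 59.5% of all genes above 0. After loess 28 were then above 0 and 11 below, against 51.1% of all genes above 0. In dDAVP against vehicle the member median was below 0 whichever array was left out, and so was that of all genes. Without vehicle replicate 2, 15 members were above 0 (38.5%, against 27.4% of all genes), and the medians were -0.03 for the members and -0.14 for all genes. Without dDAVP replicate 2, 14 were above 0, against 24.5% of all genes, with medians of -0.11 and -0.15. Without both vehicle replicate 1 and dDAVP replicate 2, 4 were above 0, against 22.9% of all genes, with medians of -0.18 and -0.11. After loess 11 members were then above 0 and 28 below, against 50.5% of all genes above 0. The loess medians were -0.11 for the members and 0.00 for all genes.

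**Figure D3:**
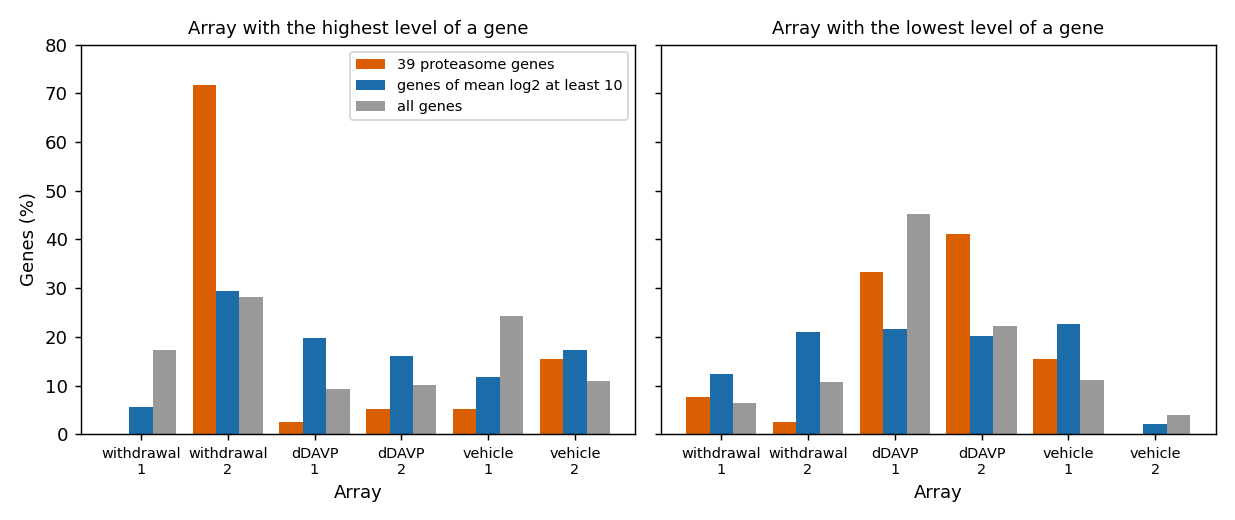
Share (percent) of the 39 proteasome genes, of the genes with a mean of at least 10 log2 and of all genes for which each array was the highest or the lowest of the 6. Withdrawal replicate 2 stands out as the highest array of the proteasome genes, with 71.8% of them against 28.1% of all genes.

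By role, the members of the alpha ring, the ATPases, the other base subunits and the assembly chaperones were all above dDAVP in withdrawal. On the deposited values 74.9% of all genes were above 0, with a median of 0.14. After loess the members of these roles were again all above 0, against 50.9% of all genes. Without withdrawal replicate 2, on the deposited values, 2 of 3 of the other base subunits were above 0, with a median of 0.02, and 2 of 3 chaperones. For the 7 alpha subunits the median was 0.23, and 0.07 without withdrawal replicate 2, with 7 above 0 in both, and 6 of 7 were below 0 in dDAVP against vehicle (median -0.13). Psma7, an alpha subunit, had 11.88 and 12.07 log2 in withdrawal, 11.56 and 11.84 in dDAVP and 11.97 and 11.96 in vehicle. Both dDAVP arrays lay below the other 4, by little for dDAVP replicate 2. Psma7 differed by -0.26 ± 0.13 (SE) in dDAVP against vehicle. Differences of withdrawal from dDAVP were 0.23 for Psma1, 0.25 for Psma3l, 0.27 for Psma4 and 0.12 for Psma5, and 0.04 and 0.02 for Psma2 and Psma6.

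All 6 ATPases were above 0 in withdrawal against dDAVP (median 0.21) and below 0 in dDAVP against vehicle (median -0.16). Of all genes, 74.9% were above 0 in the first comparison and 77.9% below 0 in the second. After loess all 6 kept both signs (medians 0.20 and -0.14), against 50.9% and 50.2% of all genes. Without withdrawal replicate 2, 5 of 6 were above 0 in withdrawal against dDAVP (median 0.07). Psmc4 had 10.73 and 11.04 log2 in withdrawal, 10.61 and 10.34 in dDAVP and 10.51 and 10.78 in vehicle. Withdrawal and dDAVP did not overlap, while the vehicle arrays lay on either side of the gap. Psmc4 differed by 0.41 ± 0.16 (SE, 1.33-fold, limma unadjusted p = 0.045, adjusted p = 0.260) in withdrawal against dDAVP and by 0.24 ± 0.16 in withdrawal against vehicle. A second probe set of Psmc4 gave 0.31 and 0.15. The other ATPases, Psmc1, Psmc2, Psmc3, Psmc5 and Psmc6, lay between 0.06 and 0.22 above dDAVP in withdrawal.

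Among the catalytic subunits, Psmb6 and Psmb7 were lowest in the dDAVP arrays. Psmb6, which carries the caspase-like site, had 10.86 and 11.36 log2 in withdrawal, 10.79 and 10.62 in dDAVP and 10.90 and 11.02 in vehicle. The groups did not overlap between withdrawal and dDAVP, but 0.50 log2 separated the withdrawal arrays from each other. Psmb6 differed by 0.41 ± 0.18 in withdrawal against dDAVP (0.15 without withdrawal replicate 2) and by -0.25 ± 0.18 in dDAVP against vehicle, and its second probe set gave 0.25 and -0.21.

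Psmb7, which carries the trypsin-like site, had 11.92 and 12.06 log2 in withdrawal, 11.81 and 11.80 in dDAVP and 12.05 in both vehicle arrays. Its dDAVP arrays lay below the other 4. The difference in dDAVP against vehicle was -0.24 ± 0.09 (SE, limma unadjusted p = 0.039, adjusted p = 0.549), the only member under 0.05 before adjustment in that comparison, and -0.13 with array medians subtracted. Psmb5, which carries the chymotrypsin-like site and is the main target of bortezomib, had 11.21 and 11.33 in withdrawal, 11.23 and 11.05 in dDAVP and 11.14 and 11.26 in vehicle, and all groups overlapped. Its differences were 0.13 ± 0.11 in withdrawal against dDAVP, with a 95% interval of -0.14 to 0.40, and -0.06 ± 0.11 in dDAVP against vehicle.

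The structural beta subunits Psmb2 and Psmb3 differed in sign. Psmb3 had 11.20 and 11.34 log2 in withdrawal, 10.90 and 10.62 in dDAVP and 10.76 and 11.22 in vehicle. It differed by 0.51 ± 0.18 (SE, 1.42-fold, limma unadjusted p = 0.029, adjusted p = 0.260) in withdrawal against dDAVP and by 0.28 ± 0.18 in withdrawal against vehicle. Psmb2 had 11.67 and 11.62 in withdrawal, 11.79 and 11.82 in dDAVP and 11.73 and 11.79 in vehicle, with both withdrawal arrays below the other 4. Psmb2 differed by -0.16 ± 0.09 from dDAVP and by -0.11 ± 0.09 from vehicle. Psmb1 differed by 0.10 ± 0.15 in withdrawal against dDAVP.

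**Figure D4:**
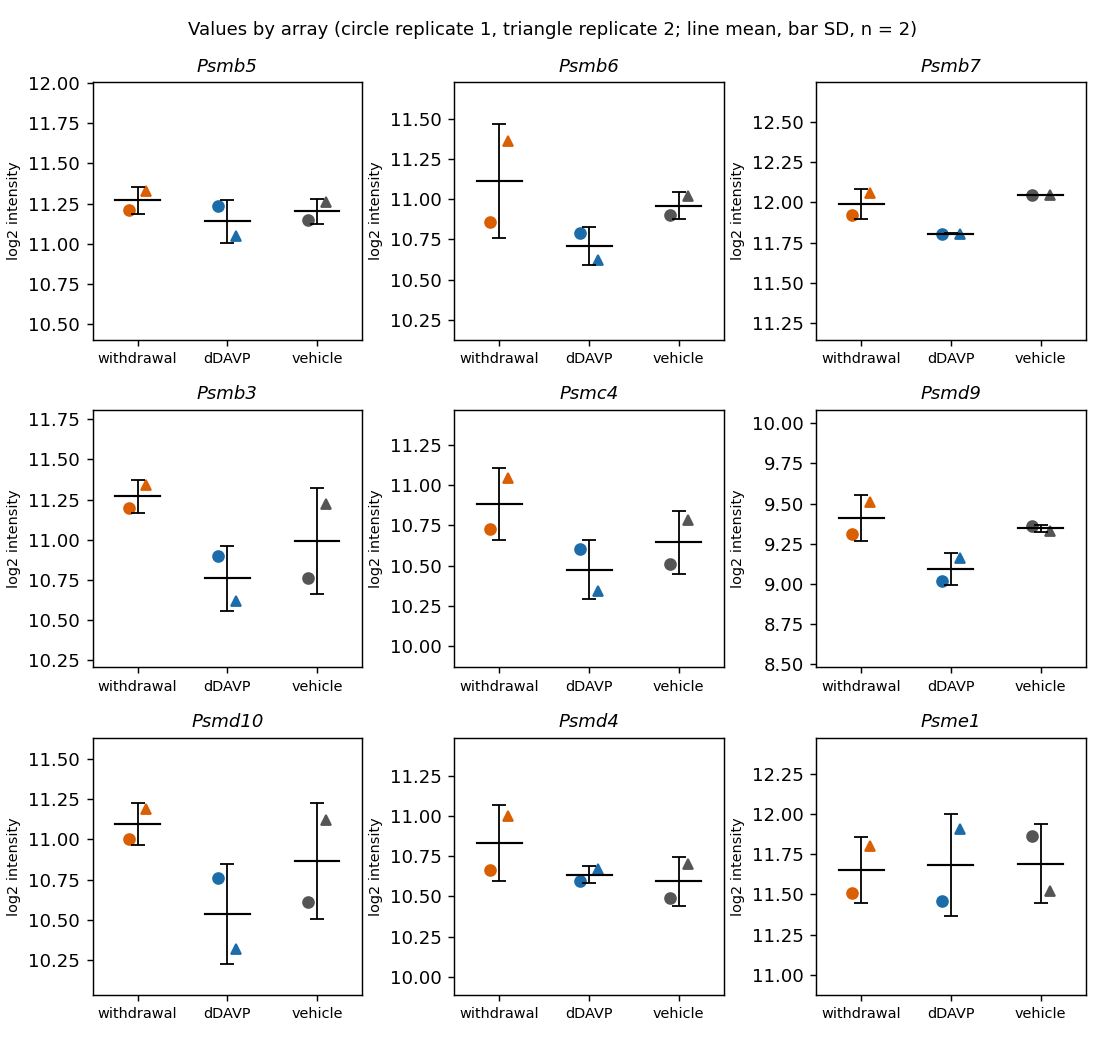
Log2 intensity of 9 of the proteasome genes in each array, by group (withdrawal, dDAVP, vehicle; circle replicate 1, triangle replicate 2), with the mean (line) and SD (bar) of the 2 arrays. Each panel has its own axis, and levels are not compared between genes. Psmb3, Psmd9, Psmd10 and Psmc4 show withdrawal arrays above dDAVP arrays without overlap.

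The cap's other parts were less uniform. The ubiquitin receptor Psmd4 had 10.67 and 11.00 log2 in withdrawal, 10.60 and 10.67 in dDAVP and 10.49 and 10.70 in vehicle, with withdrawal replicate 2 above the other 5 arrays. It differed by 0.24 ± 0.14 in withdrawal against vehicle. The scaffold subunits Psmd1 and Psmd2 differed by 0.11 and 0.03 from dDAVP in withdrawal. In the lid 4 of 8 genes were above 0 and 4 below in withdrawal against dDAVP (median 0.04). The deubiquitinase Psmd14 had 11.76 and 11.79 in withdrawal, 11.81 and 11.57 in dDAVP and 11.55 and 11.90 in vehicle, so its withdrawal values lay within the range of the other groups. Psmd12 had 11.27 and 11.58 in withdrawal, 11.15 and 11.11 in dDAVP and 11.29 and 11.50 in vehicle, with both dDAVP arrays lowest, and differed by -0.26 ± 0.14 in dDAVP against vehicle. The other lid genes, Psmd3, Psmd6, Psmd7, Psmd8, Psmd11 and Psmd13, lay between -0.12 and 0.13 in withdrawal against dDAVP.

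The assembly chaperones had the highest role median in withdrawal against dDAVP, 0.32 over 3 genes, and 0.22 without withdrawal replicate 2. Psmd9 had 9.31 and 9.51 log2 in withdrawal, 9.02 and 9.16 in dDAVP and 9.36 and 9.33 in vehicle. Both dDAVP arrays lay below the other 4. Psmd9 differed by 0.32 ± 0.11 (SE, 1.25-fold, limma unadjusted p = 0.026, adjusted p = 0.260) in withdrawal against dDAVP and by -0.25 ± 0.11 in dDAVP against vehicle, and with array medians subtracted by 0.20 and -0.14. Psmd10 (gankyrin) had 11.00 and 11.19 in withdrawal, 10.76 and 10.32 in dDAVP and 10.61 and 11.12 in vehicle. It differed from dDAVP by 0.56 ± 0.22 (SE, 1.47-fold, limma unadjusted p = 0.040, adjusted p = 0.260), and by 0.34 without dDAVP replicate 2, and its vehicle arrays lay on either side of dDAVP replicate 1. Psmd5 differed by 0.14 ± 0.27, and its arrays covered a range of 0.84 log2.

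The activators differed between replicate arrays. Psme1, of the interferon-inducible activator PA28, had 11.51 and 11.80 log2 in withdrawal, 11.46 and 11.90 in dDAVP and 11.86 and 11.52 in vehicle. Its partner Psme2 had 11.49 and 11.92 in withdrawal, 11.38 and 11.70 in dDAVP and 11.87 and 11.59 in vehicle. Psme4 had 9.86 and 9.89 in withdrawal, 9.61 and 10.14 in dDAVP and 10.52 and 9.75 in vehicle. In all 3 genes dDAVP replicate 2 was above dDAVP replicate 1, as in 61.1% of all genes. Vehicle replicate 1 was above vehicle replicate 2 in all 3, while vehicle replicate 2 was the higher in 42.0% of all genes. The groups overlapped. Both orders also held in Psma7, Psmb11, Psmc3 and Psmd9, and in the immunoproteasome subunits Psmb8, Psmb9 and Psmb10. The differences of withdrawal from dDAVP were -0.03 ± 0.20 for Psme1, 0.17 ± 0.19 for Psme2 and 0.00 ± 0.28 for Psme4.

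Vehicle replicate 1 and dDAVP replicate 2 both lay below the other 4 arrays for 12 members (12.7% of all genes), among them Psmd5, Psmd10, Psmb3, Psmc4 and 5 lid or scaffold genes (Psmd2, Psmd3, Psmd7, Psmd13 and Psmd14). The rest of the 12 were Psma3l, Psmb5 and Psmc1. Both arrays lay above the other 4 for 2 members, Psme1 and Psme4 (10.9% of all genes). For Psme1 this held in the brighter probe set only. In its second probe set vehicle replicate 1 was highest, but dDAVP replicate 2 lay below withdrawal replicate 2. The mean of vehicle replicate 1 and dDAVP replicate 2 minus that of the other 4 was 0.56 log2 for Psme4. It was 0.31 for the brighter probe set of Psme1, and 0.06 to 0.21 for Psmb8, Psmb9 and Psmb10. It was -0.48 for Psmb3 and -0.36 for Psmc4. Of the 4 immune markers measured, Cd74, an interferon-inducible chaperone, had 8.81 and 9.39 in withdrawal, 9.17 and 9.86 in dDAVP and 9.99 and 8.74 in vehicle, with the same 2 arrays at its top as Psme1 and Psme4. The macrophage marker Cd68 had 10.18 and 10.12 in withdrawal, 10.14 and 9.29 in dDAVP and 9.33 and 10.39 in vehicle, with those 2 arrays lowest. Ptprc and Cd3e were highest in vehicle replicate 1, and Ptprc was lower in dDAVP replicate 2 than in dDAVP replicate 1. The summed intensity of the 4 was 2043 and 2250 in withdrawal, 2176 and 2041 in dDAVP and 2305 and 2263 in vehicle. Their part in the proteasome values was not tested.

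**Figure D5:**
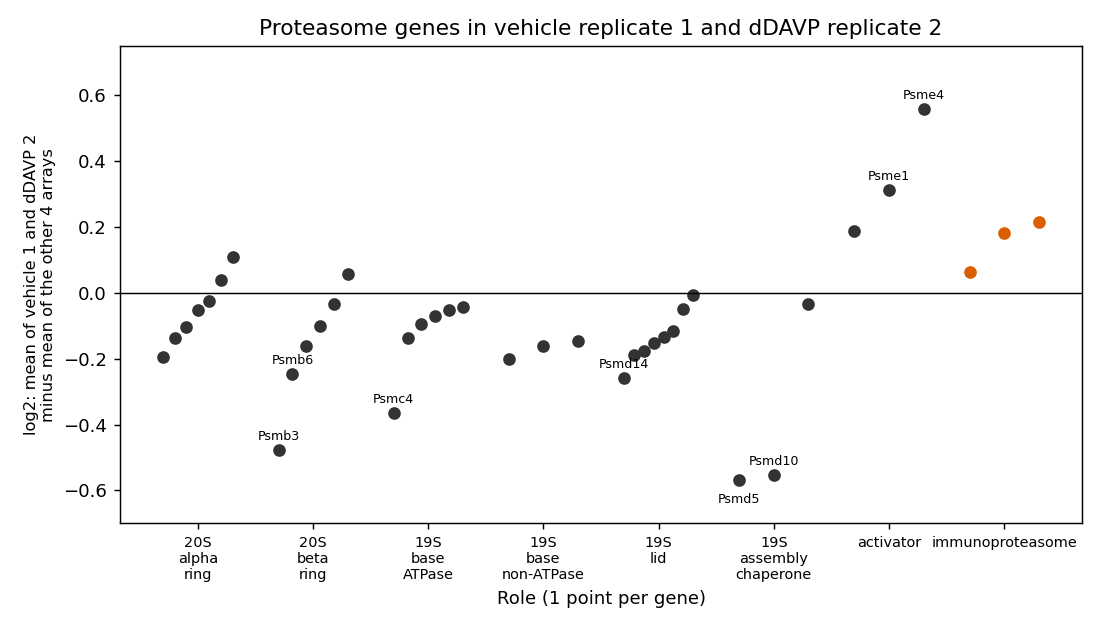
Mean log2 intensity of vehicle replicate 1 and dDAVP replicate 2 minus the mean of the other 4 arrays for each subunit and regulator (dark points, by role) and for the immunoproteasome subunits (orange points). Psme4 and Psme1 lie highest, and Psmd5, Psmd10 and Psmb3 lowest.

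Genes that work with the proteasome were read from lists of 47 genes, of which 36 were measured. None was called by limma in any comparison. The 3 immunoproteasome subunits were all above 0 in withdrawal against dDAVP (74.9% of all genes) and below 0 in dDAVP against vehicle (77.9%). Psmb8 had 10.28 and 10.84 log2 in withdrawal, 9.92 and 10.30 in dDAVP and 10.60 and 10.50 in vehicle, with differences of 0.44 ± 0.21 in withdrawal against dDAVP and -0.44 ± 0.21 in dDAVP against vehicle. Psmb9 and Psmb10 differed by 0.20 each in withdrawal against dDAVP and by -0.31 and -0.24 in dDAVP against vehicle.

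Of 5 assembly factors measured outside the members, Pomp had the smallest p in withdrawal against dDAVP and in dDAVP against vehicle. At an unadjusted p under 0.05, 17.3% of all genes were higher in the first comparison and 6.85% lower in the second. Pomp matures the core and is known to be needed for its beta ring. Pomp had 11.36 and 11.86 log2 in withdrawal, 11.05 and 11.14 in dDAVP and 11.53 in both vehicle arrays. Both dDAVP arrays were lowest, as in 33.6% of all genes. Pomp differed by 0.51 ± 0.17 in withdrawal against dDAVP (limma unadjusted p = 0.021, adjusted p = 0.260) and by -0.44 ± 0.17 in dDAVP against vehicle (limma unadjusted p = 0.038, adjusted p = 0.549). Psmg1 and Akirin2, a core chaperone and a nuclear import factor of proteasomes, differed by 0.10 and -0.04 in withdrawal against dDAVP.

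Of 8 proteasome-associated genes measured, 1, the ubiquitin receptor Adrm1, had an unadjusted p under 0.05, in withdrawal against vehicle. At that p 0.642% of all genes were higher and 1.14% lower in that comparison. Adrm1 had 8.78 and 8.84 in withdrawal, 8.63 and 8.35 in dDAVP and 8.25 and 8.49 in vehicle. Both withdrawal arrays were above the other 4, and the difference was 0.44 ± 0.14 from vehicle (limma unadjusted p = 0.018, adjusted p = 0.995) and 0.32 ± 0.14 from dDAVP. Sem1, a small lid subunit, differed by -0.17 ± 0.08 from dDAVP, and Fbxo7, a ubiquitin ligase subunit that binds the proteasome, by -0.11 ± 0.11 from vehicle in withdrawal.

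All 14 genes of the list around Nfe2l1 were measured, and 3 had an unadjusted p under 0.05 in withdrawal against dDAVP, all higher, against 17.3% of all genes higher at that p. Ddi2, the protease known to activate Nfe2l1, had 7.68 and 7.71 log2 in withdrawal, 7.22 and 7.35 in dDAVP and 7.60 and 7.94 in vehicle. Both dDAVP arrays lay below the other 4. Ddi2 differed by 0.41 ± 0.13 in withdrawal against dDAVP and by -0.49 ± 0.13 in dDAVP against vehicle (limma unadjusted p = 0.010, adjusted p = 0.549). Its relative Ddi1 differed by 0.27 ± 0.09 in withdrawal against dDAVP and by -0.20 ± 0.09 in dDAVP against vehicle. Both genes are dim, and after loess these differences were 0.25 and -0.34 for Ddi2 and 0.06 and -0.04 for Ddi1. Nfe2l2, the oxidative stress factor that binds the same element, had 11.21 and 11.13 in withdrawal, 10.75 and 10.63 in dDAVP and 10.67 and 11.15 in vehicle, and differed by 0.48 ± 0.16 in withdrawal against dDAVP and by 0.26 ± 0.16 in withdrawal against vehicle. Mafg, a small Maf partner of both factors, differed by 0.33 ± 0.13 in withdrawal against vehicle. Nfe2l1 itself, named after its values were seen, had 9.10 and 9.04 in withdrawal, 9.29 and 9.21 in dDAVP and 9.16 and 9.28 in vehicle, and differed by -0.18 ± 0.10 in withdrawal against dDAVP.

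The shuttle factors, which bring ubiquitinated proteins to the cap, and the ubiquitin-activating enzymes held no gene under an unadjusted p of 0.05. Differences of withdrawal from dDAVP were 0.14 for Ubqln2, -0.07 for Sqstm1, 0.21 for Uba6 and -0.03 for Uba1. The difference in dDAVP against vehicle was -0.04 for Ubqln4 and -0.33 for Uba6, and Rad23b differed by -0.05 in withdrawal against vehicle.

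Members with and without the element core in the promoter were set side by side. The 7 members with TGACNNNGC in the window had a median difference of 0.11 log2 in withdrawal against dDAVP, from -0.16 (Psmb2) to 0.41 (Psmb6), with 5 above 0. The 26 with a promoter but no match had a median of 0.14, with 22 above 0. Psmb7, without a match, and Psmd9, with 2, both had their dDAVP arrays below the other 4. No test was made of this split.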

How the data were processed

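Kidney inner medulla RNA of 6 rat samples was measured on whole-transcript arrays. The authors deposited intensities, 1 per probe set and array, made with RMA per the submitters' processing notes. Its version is not given in the sources used here, nor is a genome build. The intensities are linear (30.2 to 10778.7), so log2 was taken. Of 28524 probe sets, 14947 had a symbol of their own in the array annotation, giving 14168 genes by the probe set with the highest mean. No value was filtered out. Tests used limma 3.58.1 under R 4.3.3 (lmFit, eBayes, 1 mean per group over all 6 arrays, two-sided, Benjamini-Hochberg over all genes, threshold 0.05). The code was tested on simulated data. Intervals are 95%. The members and lists were chosen with earlier results of these data known. Array values are given for the catalytic subunits, Psmd4, Psmd14, the activators and the 4 members with the smallest p per comparison. Outside the members the 2 genes with the smallest p per list and comparison are named, and the immune markers and Nfe2l1 were named after their values were seen. Alternatives changed the scaling, the dim-gene filter, the probe set rule, the fit, the members and the arrays.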

Additional observations from a re-analysis of the deposited data

How the results depend on the processing

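Under the 18 planned and 3 added alternatives, the latter chosen after seeing the data, limma called 0 members in every comparison, with a smallest adjusted p of 0.151. The members' median minus that of all genes ran from -0.07 to 0.12 in withdrawal against dDAVP, from -0.08 to 0.10 in dDAVP against vehicle and from -0.08 to 0.12 in withdrawal against vehicle, within the replicate spread (SD 0.15). Leaving out 1 array at a time gave -0.07 to 0.10, -0.05 to 0.10 and -0.08 to 0.12. Of 691 values of named genes, 648 lay within 1 SE of the reported value and 0 passed. Many of these values could not move. Changes to the fit, the dim-gene filter, the members or an array outside the comparison leave a gene's difference as it was. The count is therefore no measure of how stable the differences are. The replicate numbers did not pair the arrays: deviations of same-numbered arrays correlated at -0.62 in dDAVP and vehicle, -0.11 in withdrawal and dDAVP and 0.00 in withdrawal and vehicle. With the replicate block 0 members were called, and the smallest adjusted p of a member was 0.409, 0.713 and 0.999 in withdrawal against dDAVP, dDAVP against vehicle and withdrawal against vehicle. With the dDAVP numbers crossed, a block on the 4 arrays of dDAVP against vehicle called 0 members and 43 of all genes. With 2 arrays a group, small differences could not be resolved, and signal over background was not analysed here.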
